A study of Homo sapiens with 12 samples.

Results

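Interferon-stimulated genes, 36 named antiviral and signalling genes, were followed in 2 human lymphoma cell lines given a CDK9 inhibitor. They were found by symbol in the deposited table of raw read counts, where all 36 of the list are among 58233 genes. The rule is the list of names and uses no measured value, though the list was drawn up with earlier results of these data known. A filter on low counts passed 31 of them, together with 16374 genes in all. OCI-LY3 and VAL are established lines of diffuse large B-cell lymphoma, an aggressive cancer of mature B cells. The groups were OCI-LY3 cells after 3 h and 6 h with 300 nM AZ5576, VAL cells after 3 h and 6 h with the same dose, and untreated cells of each line collected when treatment began (0 h). AZ5576 is a selective inhibitor of CDK9, the P-TEFb kinase that frees RNA polymerase II from its pause near promoters. All 6 groups had 2 libraries of poly(A)+ RNA each. Nothing in the labels says that the 2 came from separate cultures, so p-values measure the spread between these libraries, which may be technical. The labels give the 0 h cells as untreated, though a vehicle is mentioned in the series' text. Each line was sequenced on a lane of its own, so line and lane cannot be told apart. The labels mark the 3 libraries of VAL numbered 1 as resubmitted and do not say whether they were sequenced again.

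Interferons are secreted on virus infection and act through cell-surface receptors. Receptors for type I and type III interferon switch on the kinases JAK1 and TYK2, which phosphorylate STAT2. STAT2 and the DNA-binding protein IRF9 are subunits of the factor ISGF3, which binds the interferon-stimulated response element in promoters. Its targets include sensors of double-stranded RNA, enzymes that stop translation or cut RNA, membrane proteins that block virus entry or release, and the ubiquitin-like protein ISG15 with its enzymes. Many B-cell lymphoma lines hold some of these genes at a basal level without added interferon.

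Depth ranged from 23175082 to 39715536 counts per library. Levels are CPM (a gene's counts scaled to a common library total with TMM factors), for replicate 1 and then replicate 2. Changes are log2 ± standard error, and a gene passed at an adjusted p under 0.05 over all genes tested. The share of mitochondrially encoded mRNA was higher after treatment, at 3.17% to 6.90% in treated libraries and 1.74% to 2.37% at 0 h. Scaling to those mRNAs gave the median gene a log2 change, after 3 h and after 6 h, of -1.09 and -1.55 in OCI-LY3 and of -1.23 and -2.06 in VAL. Scaling to ribosomal protein mRNAs gave -0.65 and -1.12 in OCI-LY3 and -0.67 and -1.22 in VAL. Higher and lower below therefore mean relative to the rest of the library. The 2 treated VAL libraries of each time stood apart, their counts differing by a chi-square of 63.7 (3 h) and 51.9 (6 h) for each degree of freedom, against 1.66 at 0 h. In each VAL pair 1 library is among those marked resubmitted, and the part of this in the gap was not tested. The OCI-LY3 pairs differed by 19.8 at 3 h, by 2.95 at 6 h and by 2.31 untreated. All 8 B-cell markers were over 1 CPM in every group, and their sum was 2790 to 3830 CPM. The sum of 7 myeloid markers was 15.4 to 16.2 CPM in OCI-LY3 and 8.92 to 16.4 CPM in VAL at 6 h, against at most 0.61 CPM in either line at 0 h. At 6 h 2 of the 7 were over 1 CPM in each line, and 3 were at 0 in OCI-LY3 and 2 in VAL. The sum of 6 epithelial and stromal markers was 28.8 to 104 CPM in OCI-LY3, highest at 6 h, and at most 1.27 CPM in VAL. COL1A1, a fibrillar collagen, made nearly all of it, with means of 31.3 CPM at 0 h, 67.4 CPM at 3 h and 100.5 CPM at 6 h in OCI-LY3, while EPCAM, KRT18 and KRT19 had 0 counts there and KRT8 and COL1A2 at most 3 per group. That of 6 plasmacytoid dendritic cell markers was 43.5 to 84.8 CPM in OCI-LY3 and 89.2 to 195 CPM in VAL. TCF4, a factor that B cells also express, made most of it, with means of 84.1 CPM in OCI-LY3 and 103 CPM in VAL at 0 h, and IL3RA was at most 6.23 CPM in a group. GZMB had 0 counts in all 12 libraries, CLEC4C 1 count in all, and LILRA4 and PTCRA stayed under 1 CPM in each group. The sum of T and NK cell markers was at most 1.57 CPM, and that of erythroid markers at most 0.0989 CPM. The part of these in the results below was not tested.

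The response element can be read in the promoters. Windows from 250 bases before to 50 bases after a start site (RefSeq, GRCh38.p14) were held for 28 of the 36 members. A core of the element, GAAA followed by any 2 bases and GAAA again, was searched on both strands with overlaps counted. It was in a window of 21 of these 28 members (75.0%), against 1195 of 27305 genes (4.38%) and 1255 of 35116 windows (3.57%). A match is a description of the letters and not a binding site. Stretches of 30 bases of these windows are shown for members whose state differed between the lines (IFITM1, MX1, IFITM3, OAS3 and RSAD2, lower in OCI-LY3, and IFIT3, higher there), for HERC5, which appeared on treatment, and for members expressed in both, with matches in capitals. On the other strand a match reads as its reverse complement.
IFITM1, chr11:313990-314019, plus strand: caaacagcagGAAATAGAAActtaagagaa
MX1, chr21:41431844-41431873, plus strand: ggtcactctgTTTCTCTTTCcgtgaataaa
IFITM3, chr11:320876-320905, minus strand: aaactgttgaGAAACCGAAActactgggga
OAS3, chr12:112938444-112938473, plus strand: gttcggagagccgggcggGAAAACGAAAcc
RSAD2, chr2:6877622-6877651, plus strand: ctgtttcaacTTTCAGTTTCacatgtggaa
IFIT3, chr10:89327865-89327894, plus strand: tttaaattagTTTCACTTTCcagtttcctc
HERC5, chr4:88457035-88457064, plus strand: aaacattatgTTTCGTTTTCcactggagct
IFIH1, chr2:162318686-162318715, minus strand: gaagagaatcGAAACAGAAAccaaagtcag
BST2, chr19:17405735-17405764, minus strand: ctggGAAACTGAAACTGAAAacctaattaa
ISG15, chr1:1013380-1013409, plus strand: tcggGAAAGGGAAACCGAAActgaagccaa
IFI6, chr1:27672266-27672295, minus strand: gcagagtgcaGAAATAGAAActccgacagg
Counted by member, with a match in any of its windows, the motif was held by IFITM1 and by MX1, the 2 members with windows that were silent in OCI-LY3 and expressed in VAL. MX1 had 3 windows, with at most 1 match in any of them. Of 3 members low in OCI-LY3 and expressed in VAL 2 held it, and of 2 silent in OCI-LY3 and low in VAL 1 did, RSAD2, while the 2 windows of XAF1 held none. IFIT3, expressed in OCI-LY3 and low in VAL, held it, as did 9 of 13 members expressed in both lines and 6 of 7 low in both. The ISG15 stretch holds 2 overlapping matches, as does that of BST2. Members whose windows held no match were OAS1, DDX58, STAT2, HERC6, IFI35, SAMD9L and XAF1.

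In OCI-LY3, 5 members were silent and 15 were low, and 16 were expressed. In VAL none of the 36 was silent, 13 were low and 23 were expressed. Silent means under 0.1 CPM in each of a line's 6 libraries, and low means a mean under 1 CPM. As these are bulk libraries, fewer expressing cells and less RNA per cell cannot be told apart. The members silent in OCI-LY3 and expressed in VAL were IFITM1, a membrane protein that blocks virus entry, and MX1 and MX2, GTPases that trap incoming viruses. RSAD2, the antiviral enzyme viperin, and XAF1, a pro-apoptotic protein, were silent in OCI-LY3 and low in VAL. DHX58, OAS3, IFITM2, IFITM3 and HERC6 were low in OCI-LY3 and expressed in VAL. IFITM2 and IFITM3 had 5 counts each over the 6 OCI-LY3 libraries, with means of 0.0366 and 0.0264 CPM. Both means were under the 0.0392 CPM of MX2, so low and silent cannot be told apart there. IFIT3, which binds foreign RNA together with IFIT1, was the member expressed in OCI-LY3 and low in VAL. Low in both lines were OASL, IFIT1, IFIT2, IFIT5, SAMD9L, USP18, HERC5, IFI27, IFI44 and IFI44L. The other 15 were expressed in both: DDX58, IFIH1, OAS1, OAS2, EIF2AK2, BST2, ISG20, TRIM22, SAMD9, ISG15, STAT2, PARP9, DTX3L, IFI6 and IFI35.

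**Figure D1:**
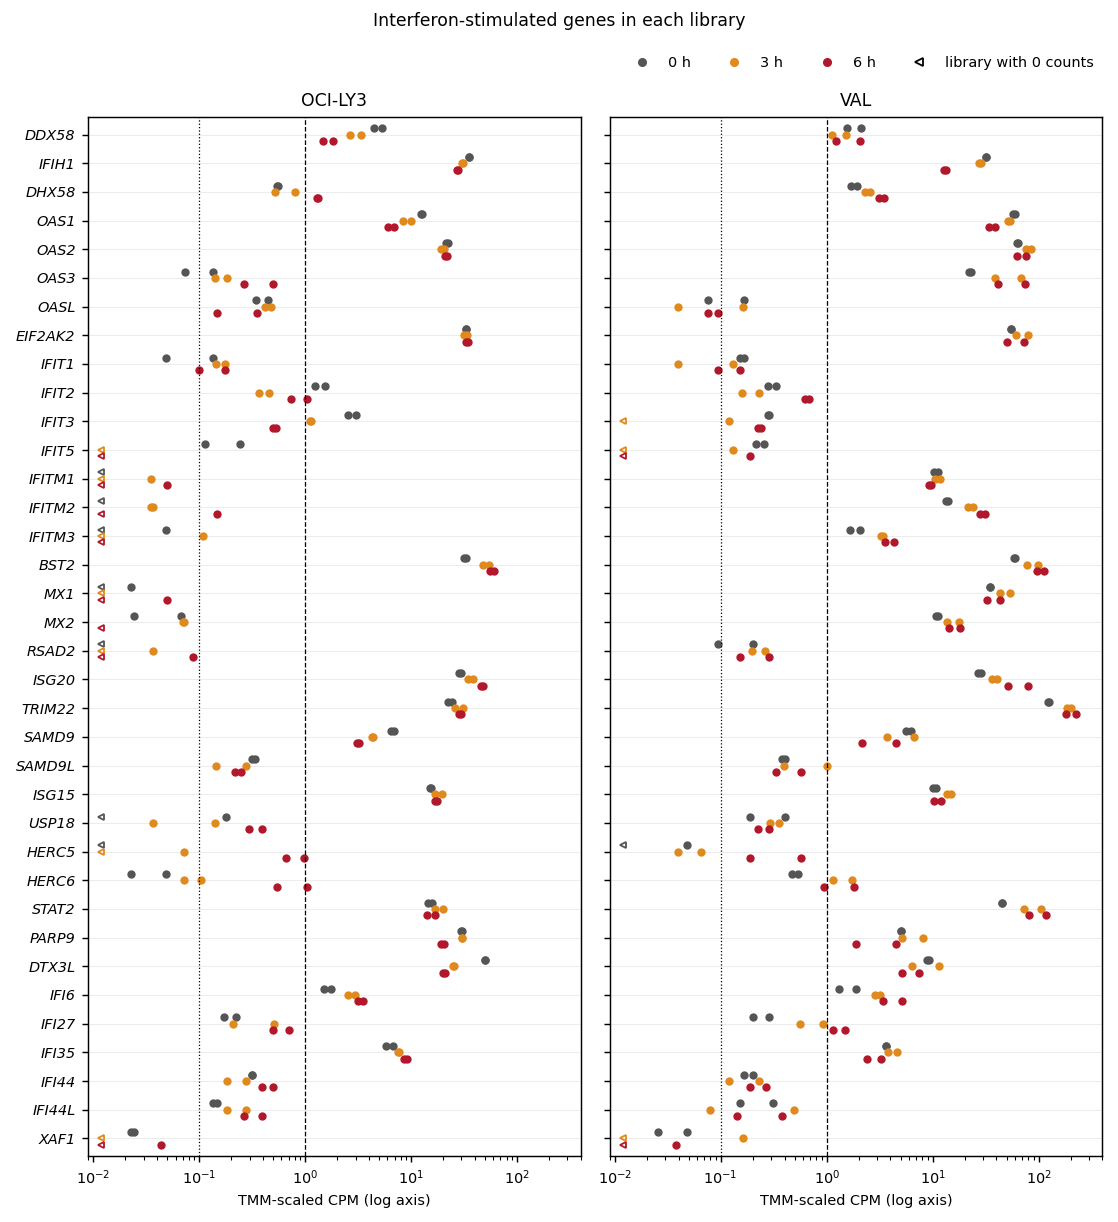
Level of each of the 36 members in each library (points, TMM-scaled CPM on a log axis) in OCI-LY3 and VAL at 0, 3 and 6 h, with open triangles for libraries with 0 counts and lines at 0.1 and 1 CPM. MX1 was at 35.0 and 34.9 CPM in VAL at 0 h and had 0 or 1 counts in each OCI-LY3 library.

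IFITM1 had 0, 0, 0, 1, 1 and 0 counts in OCI-LY3 over 0, 3 and 6 h. VAL had 10.3 and 11.3 CPM at 0 h, 10.6 and 11.7 CPM at 3 h and 9.23 and 9.65 CPM at 6 h. At 0 h it was at least 308-fold lower in OCI-LY3 than in VAL, with the floor for OCI-LY3 set at 3 counts over the group. MX1 had 1 count in OCI-LY3 at 0 h, 0 at 3 h and 1 at 6 h. VAL libraries had 35.0 and 34.9 CPM at 0 h, 54.1 and 43.3 CPM at 3 h and 43.6 and 32.4 CPM at 6 h. MX2 had 0.0244 and 0.0677 CPM in OCI-LY3 at 0 h, 0.0729 and 0.0701 at 3 h and 0 in both libraries at 6 h. VAL libraries had 11.2 and 10.8 CPM at 0 h, 17.8 and 13.8 CPM at 3 h and 18.0 and 14.4 CPM at 6 h. The OCI-LY3 and VAL libraries of these 3 genes did not overlap at any time. That largely follows from picking them as silent in OCI-LY3 and expressed in VAL. MX1 (chr21:41420304-41459214) and MX2 (chr21:41361943-41409390) lie next to each other on chromosome 21 (GRCh38, spans from GENCODE release 29). Since all 3 entered the tested genes through VAL alone, the gap between the lines is given as levels, without a test.

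The other IFITM genes showed the same order on chromosome 11. IFITM2 (chr11:307631-315272), a related entry inhibitor, had 0 counts in both OCI-LY3 libraries at 0 h, against 14.1 and 13.5 CPM in VAL, and was at least 392-fold lower in OCI-LY3. IFITM3 (chr11:319669-327537), which blocks influenza virus entry, had 2 and 0 counts in OCI-LY3 at 0 h, against 2.05 and 1.66 CPM in VAL. These genes are uncertain one by one: 27.5% of 100-base windows of IFITM1 transcripts, 18.2% of IFITM2 and 17.1% of IFITM3 are shared with other genes, mostly each other, and how such reads were counted is not given in the sources used here.

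The oligoadenylate synthetases, which make the activator of RNase L from double-stranded RNA, are neighbours on chromosome 12, and the one in the middle was near 0 in OCI-LY3. In OCI-LY3 at 0 h OAS1 (chr12:112906777-112933222) had 12.8 and 12.5 CPM, OAS3 (chr12:112938352-112973249) had 0.0732 and 0.135 CPM and OAS2 (chr12:112978395-113011723) had 21.6 and 22.2 CPM. In VAL OAS1 had 57.4 and 59.4 CPM, OAS3 had 23.0 and 22.2 CPM and OAS2 had 63.7 and 62.2 CPM. OAS1 and OAS2 were lower in OCI-LY3, by log2 differences of -2.21 ± 0.13 for OAS1 and -1.52 ± 0.12 for OAS2. The OAS3 libraries of the lines did not overlap, but OAS3 entered the tested genes through VAL alone. OASL, a related protein that enhances RIG-I signalling, was low in both lines, with 0.342 and 0.452 CPM in OCI-LY3 and 0.167 and 0.0764 CPM in VAL at 0 h.

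Over all tested members, OCI-LY3 was higher than VAL at 0 h for 8 and lower for 14, and 9 did not pass. Among all genes tested, 29.8% were higher and 26.5% lower. The median log2 difference was -0.71 over the 31 members and 0.03 over all genes tested. OASL among the higher and 6 of the lower (OAS3, IFITM1, IFITM2, IFITM3, MX1 and MX2) passed the low-count filter through the line where they were high alone, so their calls restate that. The other 24 members gave 7 higher and 8 lower, with a median of -0.11. The count of higher members over all 31 was 5 without OCI-LY3 0 h replicate 2. Of the 15 calls of the other members, 13 stayed in every fit that left out 1 of the 12 libraries.

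With those 6 included, 4 of 4 membrane restriction factors, 4 of 5 tested enzymes activated by double-stranded RNA, and 3 of 6 tested MX and other restriction factors were lower in OCI-LY3. The calls of those 6 restate the filter. Without them the lower members of these classes were BST2, OAS1, OAS2, EIF2AK2 and TRIM22, and 26.5% of all genes were lower. BST2, or tetherin, which holds budding virions on the cell, had 32.0 and 33.2 CPM in OCI-LY3 and 59.9 and 58.3 CPM in VAL (-0.86 ± 0.14, adjusted p = 2.71e-04). Per length it was the highest member in both lines, at 120.3 ± 2.00 TPM in OCI-LY3 and 237 ± 1.31 TPM in VAL (SD, n = 2 each). TRIM22, a ubiquitin ligase that restricts retroviruses, had 24.3 and 22.4 CPM in OCI-LY3 and 121 and 126 CPM in VAL (-2.41 ± 0.13, adjusted p = 6.00e-08). STAT2, the ISGF3 subunit, had 15.8 and 14.6 CPM in OCI-LY3 and 45.5 and 45.4 CPM in VAL (-1.58 ± 0.21, adjusted p = 6.31e-05). EIF2AK2, the kinase PKR that stops translation, differed less, by -0.74 ± 0.17, adjusted p = 0.00286. The RNA helicase DHX58 (LGP2) was also lower in OCI-LY3, by -1.72 ± 0.23, adjusted p = 7.46e-05.

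Apart from OASL, the members higher in OCI-LY3 were both tested IFIT proteins, the PARP9-DTX3L pair, DDX58, ISG15 and IFI35. PARP9 and DTX3L form a complex that modifies histones, and their genes start back to back on chromosome 3. PARP9 had 29.6 and 30.2 CPM in OCI-LY3 and 5.04 and 5.04 CPM in VAL (2.57 ± 0.28, adjusted p = 1.36e-05). DTX3L had 50.1 and 50.4 CPM in OCI-LY3 and 9.33 and 8.76 CPM in VAL (2.47 ± 0.23, adjusted p = 3.58e-06). The libraries of the lines did not overlap for either gene. IFIT3 had 3.00 and 2.55 CPM in OCI-LY3 and 0.285 and 0.280 CPM in VAL (3.28 ± 0.34, adjusted p = 1.02e-05). IFIT2, which also binds viral RNA, had 1.24 and 1.54 CPM in OCI-LY3 and 0.333 and 0.280 CPM in VAL (2.16 ± 0.29, adjusted p = 7.99e-05). DDX58, the RNA sensor RIG-I, had 4.49 and 5.35 CPM in OCI-LY3 and 2.09 and 1.55 CPM in VAL (1.43 ± 0.25, adjusted p = 5.30e-04). IFIT1, which recognises RNA caps that lack methylation, was at 0.0488 and 0.135 CPM in OCI-LY3 and 0.167 and 0.153 CPM in VAL and was not tested. ISG15, with 15.1 and 15.4 CPM in OCI-LY3 and 10.8 and 10.1 CPM in VAL, differed by 0.54 ± 0.13, and its call was lost without any 1 of the 4 libraries of 0 h, with differences from 0.34 to 0.55. IFI35, a partner of NMI, differed by 0.79 ± 0.16 and lost its call without OCI-LY3 0 h replicate 2, with differences from 0.51 to 0.80.

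With AZ5576 in OCI-LY3, 2 members were higher and 5 lower at 3 h in the main fit, and 10 were higher and 6 lower at 6 h. More were higher at 3 h with each line fitted alone, with DESeq2, or without the treated VAL libraries of either number. Those counts are given in the last section. At 3 h 2 members were higher, BST2 and IFI6, both of which turned negative when scaled to mitochondrial mRNAs. DDX58, OAS1, IFIT2, IFIT3 and DTX3L, 5 in all, were lower and 24 did not pass. Among all genes 17.8% were higher and 24.3% lower. At 6 h 15 of the 31 did not pass, and the shares of all genes higher and lower were 28.1% and 33.4%. The median change of tested members was 0.26 at 3 h and 0.18 at 6 h, against 0.00 and -0.01 over all genes. At 6 h 6 higher and 4 lower members had changed at least 2-fold. Without HERC5, which passed the low-count filter through the 6 h libraries, 9 were higher at 6 h and the median was 0.11.

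Of 3 sensors of double-stranded RNA 2 were lower in OCI-LY3 at 6 h and 1 was higher. Of 5 enzymes that double-stranded RNA activates 1 was lower. Among all genes 33.4% were lower and 28.1% higher. DDX58 had 2.66 and 3.36 CPM at 3 h and 1.83 and 1.49 CPM at 6 h, against 4.49 and 5.35 CPM at 0 h. Its change was -1.57 ± 0.27, adjusted p = 4.50e-04 at 6 h. The libraries of 6 h lay below those of 3 h, and those below 0 h. IFIH1, the sensor MDA5 of long double-stranded RNA, had 30.02 and 30.8 CPM at 3 h and 27.1 and 27.7 CPM at 6 h, against 35.6 and 35.1 CPM at 0 h. Its change at 6 h was -0.37 ± 0.10, adjusted p = 0.00682, and the call was lost without OCI-LY3 0 h replicate 1 or 0 h replicate 2, with changes from -0.40 to -0.33. OAS1 had 10.1 and 8.34 CPM at 3 h and 6.13 and 6.94 CPM at 6 h, against 12.8 and 12.5 CPM at 0 h (-0.95 ± 0.13, adjusted p = 1.02e-04 at 6 h). The treated OAS1 libraries all lay below the 0 h libraries.

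IFIT3 and DTX3L, which OCI-LY3 held above VAL, fell as well. IFIT3 had 1.13 and 1.12 CPM at 3 h and 0.495 and 0.527 CPM at 6 h, against 3.00 and 2.55 CPM at 0 h. Its change was -1.30 ± 0.29 at 3 h and -2.43 ± 0.35, adjusted p = 1.15e-04 at 6 h. IFIT2 was lowest at 3 h, with 0.365 and 0.455 CPM, and had 0.742 and 1.05 CPM at 6 h, against 1.24 and 1.54 CPM at 0 h (-1.75 ± 0.30, adjusted p = 8.21e-04 at 3 h). DTX3L had 25.3 and 24.8 CPM at 3 h and 19.9 and 21.1 CPM at 6 h, against 50.1 and 50.4 CPM at 0 h, with changes of -1.01 ± 0.21 and -1.29 ± 0.22, adjusted p = 3.63e-04. Its neighbour PARP9 had 30.3 and 30.02 CPM at 3 h and 19.2 and 20.4 CPM at 6 h, against 29.6 and 30.2 CPM at 0 h. The PARP9 change was 0.01 ± 0.25, adjusted p = 0.994 at 3 h and -0.59 ± 0.26, adjusted p = 0.0673 at 6 h. The difference between the 2 genes was not tested, and their exons overlap by 217 bases on opposite strands, where an unstranded kit cannot assign reads. SAMD9, an antiviral factor that inhibits translation, had 4.30 and 4.41 CPM at 3 h and 3.12 and 3.25 CPM at 6 h, against 6.54 and 6.93 CPM at 0 h. Its change at 6 h was -1.08 ± 0.31, adjusted p = 0.0109, and the call was lost without either 6 h library of OCI-LY3, with changes from -1.13 to -0.996. IFIT5 had 0 counts in the 4 treated OCI-LY3 libraries and 10 and 5 counts at 0 h, which is at least 3.33-fold lower at 3 h.

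The members higher in OCI-LY3 at 6 h were BST2, ISG20, IFI6, IFI35, TRIM22, DHX58, HERC5, HERC6, IFI27 and IFITM2, of which DHX58, IFITM2, HERC5, HERC6 and IFI27 alone kept a positive sign when counts were scaled to ribosomal protein mRNAs and all of these but DHX58 when scaled to mitochondrial mRNAs. All 10 stayed above the median gene under each scaling. Scaling moves all genes of a library alike, so this could hardly come out otherwise. BST2 had 54.6 and 47.6 CPM at 3 h and 61.3 and 55.3 CPM at 6 h, against 32.0 and 33.2 CPM at 0 h (0.84 ± 0.14, adjusted p = 3.02e-04 at 6 h). ISG20, an RNA exonuclease, had 38.3 and 34.7 CPM at 3 h and 47.5 and 46.2 CPM at 6 h, against 28.3 and 29.6 CPM at 0 h (0.69 ± 0.17, adjusted p = 0.00396). IFI6, an endoplasmic reticulum protein that limits flaviviruses, had 2.95 and 2.56 CPM at 3 h and 3.17 and 3.52 CPM at 6 h, against 1.51 and 1.76 CPM at 0 h (1.03 ± 0.25, adjusted p = 0.00389). For these 3 genes each treated library lay above both 0 h libraries. IFI35 had 7.66 and 7.57 CPM at 3 h and 8.56 and 9.18 CPM at 6 h, against 5.81 and 6.75 CPM at 0 h. Its change at 6 h was 0.50 ± 0.16, adjusted p = 0.0192, lost without OCI-LY3 0 h replicate 1 or either 6 h library, with changes from 0.42 to 0.65. TRIM22 had 29.5 and 28.5 CPM at 6 h, against 24.3 and 22.4 CPM at 0 h. It passed narrowly (0.32 ± 0.13, adjusted p = 0.04997), was lost without either 0 h library, either 6 h library or 3 h replicate 1 of OCI-LY3, with changes from 0.28 to 0.40, and turned to -0.05 with library size as the only scaling.

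HERC5 and HERC6, neighbours on chromosome 4, had a few counts in OCI-LY3 before 6 h and more at 6 h. HERC5 (chr4:88457117-88506163) is the ligase that attaches ISG15 to new proteins, and HERC6 (chr4:88378739-88443111) is a relative of it. HERC5 had 20 and 15 counts at 6 h (0.989 and 0.659 CPM), 2 and 0 counts at 3 h and 0 counts in both libraries at 0 h. It was at least 23.4-fold higher at 6 h than at 0 h with a floor of 3 counts at 0 h, and its call is no test, as it entered the tested genes through the 6 h libraries. HERC6 had 0.0729 and 0.105 CPM at 3 h and 0.544 and 1.05 CPM at 6 h, against 0.0488 and 0.0226 CPM at 0 h. Its change at 6 h was 4.37 ± 0.69, adjusted p = 1.90e-04, and 11 and 24 counts stood behind it. The level of both stayed near or under 1 CPM, and the HERC6 call held in every fit that left out 1 library. DHX58 had 1.29 and 1.32 CPM at 6 h, against 0.561 and 0.542 CPM at 0 h (1.23 ± 0.26, adjusted p = 0.00158). IFI27, a mitochondrial and nuclear membrane protein, had 0.495 and 0.703 CPM at 6 h, against 0.171 and 0.226 CPM at 0 h (1.58 ± 0.50, adjusted p = 0.0165). Its call was lost without OCI-LY3 0 h replicate 1 or 6 h replicate 2, with changes from 1.28 to 1.83. The call of IFITM2 rests on 3 counts in one 6 h library and 0 in the other, and without 6 h replicate 1 its change was 0.

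The OCI-LY3 counts also moved with single libraries. At 3 h the number of lower members was 2 without 0 h replicate 1 and 3 without 0 h replicate 2 or without 3 h replicate 2. The number of higher members at 3 h was 1 without 0 h replicate 1, 0 h replicate 2 or 3 h replicate 1, and 4 without either 6 h library of VAL. At 6 h the number of higher members was 6 without 0 h replicate 1. Of 7 calls at 3 h, IFIT2, BST2 and DTX3L stayed in all 12 fits. Of 16 calls at 6 h, 10 did. The call of IFIT3 at 3 h was lost without 0 h replicate 1, with changes from -1.37 to -1.14. That of IFI6 was lost without 0 h replicate 1, 0 h replicate 2 or 3 h replicate 1, with changes from 0.63 to 0.91. OAS1 lost its call without 0 h replicate 1, 0 h replicate 2 or 3 h replicate 2, with changes from -0.61 to -0.29. DDX58 lost it without any 1 of the 6 OCI-LY3 libraries or either VAL 0 h library, with changes from -0.85 to -0.53.

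With AZ5576 in VAL, most members that passed were higher. At 3 h 13 were higher, 1 was lower and 17 did not pass, against 29.6% of all genes higher and 25.1% lower. At 6 h 14 were higher, 3 were lower and 14 did not pass, against 34% and 32.2% of all genes. The median change of tested members was 0.42 at 3 h and 0.22 at 6 h, against 0.17 and 0.10 over all genes. At 6 h 10 of the higher members had changed at least 2-fold. Higher at both times were OAS3, IFITM2, IFITM3, BST2, MX2, ISG20, TRIM22, HERC6, STAT2, IFI6 and IFI27, with OAS2 and ISG15 at 3 h and DHX58, IFIT2 and HERC5 at 6 h. Of the 13 higher at 3 h, HERC6 and IFI27 alone kept a positive sign when scaled to mitochondrial mRNAs, and OAS3, HERC6, STAT2, IFI6 and IFI27 when scaled to ribosomal protein mRNAs. Of the 14 higher at 6 h, HERC5 and IFI27 kept it with the first scaling, and OAS3, HERC5, HERC6, IFI6 and IFI27 with the second. All of them stayed above the median gene under each scaling, which again could hardly come out otherwise.

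Of 4 membrane restriction factors 3 were higher in VAL at 6 h. Of 6 tested MX and other restriction factors 3 were higher and 1 lower. Among all genes 34% were higher and 32.2% lower. ISG20, BST2, TRIM22, IFITM2, IFITM3 and MX2 all turned negative when scaled to mitochondrial or ribosomal protein mRNAs. ISG20 had 36.6 and 40.7 CPM at 3 h and 51.8 and 78.8 CPM at 6 h, against 26.7 and 28.6 CPM at 0 h (1.24 ± 0.17, adjusted p = 7.05e-05 at 6 h). BST2 had 77.6 and 98.7 CPM at 3 h and 95.6 and 113 CPM at 6 h, against 59.9 and 58.3 CPM at 0 h (0.82 ± 0.14, adjusted p = 3.05e-04). TRIM22 had 202 and 187 CPM at 3 h and 226 and 182 CPM at 6 h, against 121 and 126 CPM at 0 h (0.72 ± 0.12, adjusted p = 3.55e-04). In each of these the treated libraries all lay above the 0 h libraries. IFITM2 had 21.5 and 24.3 CPM at 3 h and 28.0 and 31.2 CPM at 6 h, against 14.1 and 13.5 CPM at 0 h (1.10 ± 0.18, adjusted p = 3.93e-04). IFITM3 had 3.52 and 4.28 CPM at 6 h, against 2.05 and 1.66 CPM at 0 h (1.07 ± 0.32, adjusted p = 0.013), a call lost without VAL 0 h replicate 1 or replicate 2, with changes from 0.86 to 1.19. IFITM1, their neighbour, changed by -0.20 ± 0.18, adjusted p = 0.347. MX2 changed by 0.56 ± 0.17 at 6 h, a call lost without VAL 0 h replicate 1, 0 h replicate 2 or 6 h replicate 1, with changes from 0.38 to 0.69. MX1 changed by 0.12 ± 0.19, adjusted p = 0.59.

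STAT2 and IFI6 also rose in VAL at 6 h, though both turned negative with mitochondrial scaling and STAT2 with ribosomal protein scaling. STAT2 had 105 and 73.4 CPM at 3 h and 118 and 80.4 CPM at 6 h, against 45.5 and 45.4 CPM at 0 h (1.13 ± 0.20, adjusted p = 5.09e-04). IFI6 had 3.20 and 2.87 CPM at 3 h and 5.10 and 3.42 CPM at 6 h, against 1.88 and 1.30 CPM at 0 h (1.43 ± 0.24, adjusted p = 3.56e-04). In both, replicate 1 was above replicate 2 at each treated time, and all treated libraries were above 0 h. OAS3 had 68.7 and 38.5 CPM at 3 h and 74.6 and 41.4 CPM at 6 h, against 23.0 and 22.2 CPM at 0 h (1.36 ± 0.29, adjusted p = 0.00171). Its neighbour OAS2 had 75.4 and 62.7 CPM at 6 h, against 63.7 and 62.2 CPM at 0 h (0.13 ± 0.11, adjusted p = 0.316). HERC5 had 15 and 4 counts at 6 h and 2 and 1 counts at 3 h, against 2 and 0 counts in untreated VAL cells. Its change at 6 h was 3.797 ± 1.03, adjusted p = 0.00626, and the call was lost without 6 h replicate 1, where the change was 2.75. HERC6 had 1.81 and 0.951 CPM at 6 h, against 0.476 and 0.535 CPM at 0 h (1.47 ± 0.40, adjusted p = 0.00696), and lost its call without 0 h replicate 1 or 6 h replicate 1, with changes from 0.89 to 1.82. IFI27 had 1.47 and 1.14 CPM at 6 h, against 0.285 and 0.204 CPM at 0 h (2.40 ± 0.43, adjusted p = 4.57e-04).

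Several tested members passed at neither time in either line. EIF2AK2 changed by 0.03 ± 0.17 in OCI-LY3 and 0.17 ± 0.17 in VAL at 6 h. SAMD9L, a relative of SAMD9, had 0.247 and 0.2197 CPM at 6 h in OCI-LY3, against 0.317 and 0.339 CPM at 0 h. In VAL SAMD9L had 0.567 and 0.333 CPM at 6 h, against 0.404 and 0.382 CPM at 0 h. IFI44 and IFI44L, a pair of related genes on chromosome 1, were under 0.5 CPM in each of these libraries. IFI44 had 0.495 and 0.395 CPM at 6 h in OCI-LY3, against 0.317 and 0.316 CPM at 0 h, and 0.265 and 0.190 CPM in VAL at 6 h, against 0.167 and 0.204 CPM. IFI44L had 0.396 and 0.264 CPM at 6 h in OCI-LY3, against 0.146 and 0.135 CPM at 0 h, and 0.378 and 0.143 CPM in VAL at 6 h, against 0.309 and 0.153 CPM. RSAD2 and XAF1 did not pass the low-count filter and were not tested. RSAD2 had at most 2 counts in an OCI-LY3 library and 4 to 8 counts in a VAL library, and XAF1 at most 1 and at most 5.

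The 3 members lower in VAL at 6 h were IFIH1, OAS1 and SAMD9, which were lower in OCI-LY3 at 6 h too. IFIH1 had 27.4 and 28.8 CPM at 3 h and 13.3 and 12.7 CPM at 6 h, against 31.6 and 32.1 CPM at 0 h (-1.29 ± 0.10, adjusted p = 1.09e-06). The replicates of IFIH1 lay close to each other at each time. OAS1 had 54.2 and 51.8 CPM at 3 h and 39.1 and 34.2 CPM at 6 h, against 57.4 and 59.4 CPM at 0 h (-0.67 ± 0.12, adjusted p = 5.66e-04). SAMD9 had 6.63 and 3.70 CPM at 3 h and 4.50 and 2.14 CPM at 6 h, against 6.30 and 5.63 CPM at 0 h (-0.82 ± 0.31, adjusted p = 0.0348). Its call was lost without 0 h replicate 1 or 6 h replicate 2, with changes from -1.49 to -0.43. At 3 h IFIT3 was the lower member (-2.30 ± 0.71, adjusted p = 0.0153), from 0 and 3 counts at 3 h and 12 and 11 at 0 h, and it lost its call without 3 h replicate 1, where the change was -1.22.

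Single libraries moved the VAL counts most at 3 h. The number of higher members was 3 without VAL 0 h replicate 2 and 4 without VAL 0 h replicate 1. It was 8 without VAL 3 h replicate 1, and likewise without OCI-LY3 0 h replicate 1, 0 h replicate 2 or 3 h replicate 2. OAS3, TRIM22 and STAT2 kept their call at 3 h in all 12 fits. At 6 h the number of higher members was 10 to 15 in these fits, and that of lower members was 6 without VAL 6 h replicate 1 and 5 without either 3 h library of VAL. Leaving out both treated VAL libraries numbered 1 gave 11 higher and 6 lower members at 6 h, and leaving out those numbered 2 gave 17 and 4. At 3 h those fits gave 13 and 18 higher members and 2 lower ones each.

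**Figure D2:**
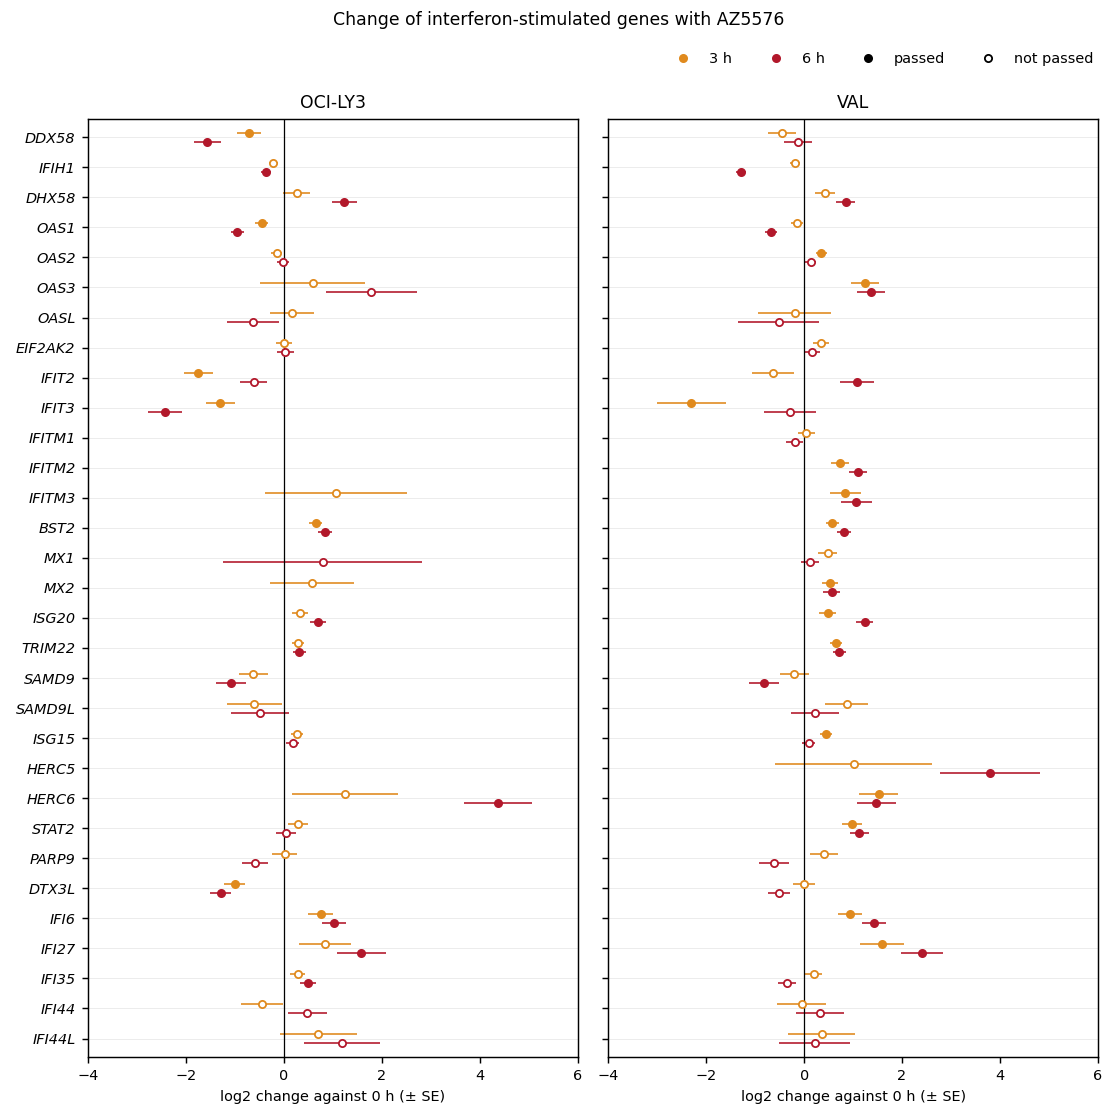
Log2 change (points, with standard errors) of the 31 tested members at 3 h and 6 h against 0 h in OCI-LY3 and VAL, filled where the gene passed and left out where a group had 0 counts. BST2, ISG20 and IFI6 lay above 0 in both lines at 6 h and IFIH1, OAS1 and SAMD9 below; the sign of the first 3 turned negative at 6 h when scaled to mitochondrial mRNAs.

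Between 3 h and 6 h fewer members moved. In OCI-LY3, 4 were higher at 6 h than at 3 h and 2 were lower, against 12% and 16.3% of all genes. HERC6 rose by 3.12 ± 0.64, adjusted p = 0.00395, which held without any 1 library. HERC5 is counted among the 4, having entered through its 6 h libraries, and without it 3 were higher. IFIT2 was 1.13 ± 0.34, adjusted p = 0.028 higher, a call lost without OCI-LY3 3 h replicate 1, 3 h replicate 2 or 6 h replicate 2 or either VAL 0 h library, with changes from 0.84 to 1.35. DHX58 was the remaining higher member (0.97 ± 0.27), lost without 3 h replicate 2 or either 6 h library of OCI-LY3, with changes from 0.70 to 1.30. The lower ones were OAS1 (-0.49 ± 0.14) and DDX58 (-0.86 ± 0.29). OAS1 lost its call without OCI-LY3 3 h replicate 1 or 6 h replicate 1, with changes from -0.63 to -0.36, and DDX58 without any 1 of the 6 OCI-LY3 libraries, with changes from -1.03 to -0.68. The number of higher members was 2 without OCI-LY3 3 h replicate 2 or 6 h replicate 2, and that of lower members 0 without 3 h replicate 1 or 6 h replicate 1.

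In VAL, 2 members were higher at 6 h than at 3 h and 3 were lower, against 7.52% and 15.3% of all genes. ISG20 rose by 0.75 ± 0.17, adjusted p = 0.00775, though with mitochondrial scaling its change was -0.01. IFIT2 rose by 1.71 ± 0.41, adjusted p = 0.0104, on 18 and 13 counts at 6 h and 7 and 4 at 3 h, and lost its call without 3 h replicate 2, with changes from 1.49 to 1.99. IFIH1 was lower at 6 h than at 3 h (-1.11 ± 0.10, adjusted p = 6.93e-05), as was OAS1 (-0.53 ± 0.12, adjusted p = 0.00938). Neither had passed at 3 h against 0 h in VAL. PARP9 was also lower (-1.02 ± 0.30, adjusted p = 0.0342), but its 2 libraries of 6 h were 4.54 and 1.90 CPM and the call was lost in 10 of 12 fits that left out 1 library, with changes from -1.82 to -0.56. Those 10 fits left out VAL 0 h replicate 1, 0 h replicate 2, 3 h replicate 1 or 6 h replicate 2, or any 1 OCI-LY3 library. Without VAL 6 h replicate 1 the number of lower members was 9, and without VAL 3 h replicate 2 it was 5. Without VAL 6 h replicate 2 the number of higher members was 4.

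Whether the 2 lines responded alike was tested as the change in OCI-LY3 minus the change in VAL. At 3 h the edgeR fit called 0 of 31 members in either direction, with 3 at an unadjusted p under 0.05, all lower, and DESeq2 called 0 as well. Among all genes 2.73% were higher and 3.3% lower. The number of lower members at 3 h was 4 without VAL 3 h replicate 2 and 2 without either VAL 6 h library. At 6 h 3 members were higher and 4 lower, against 12.3% and 14.4% of all genes. The 2 changes share no library, but each shares its 0 h libraries between 3 h and 6 h.

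STAT2 did not pass in OCI-LY3 and rose in VAL, a rise that turned negative with mitochondrial or ribosomal protein scaling. In OCI-LY3 it had 17.0 and 20.04 CPM at 3 h and 14.3 and 16.9 CPM at 6 h, against 15.8 and 14.6 CPM at 0 h. The difference in change at 6 h was -1.09 ± 0.29, adjusted p = 0.019, with OCI-LY3 at 0.04 and VAL at 1.13. IFIH1 fell in both lines and fell less in OCI-LY3, with a difference of 0.92 ± 0.14, adjusted p = 0.00123. DDX58 fell in OCI-LY3 and changed by -0.14 ± 0.29 in VAL, where it had 2.04 and 1.24 CPM at 6 h and 2.09 and 1.55 CPM at 0 h. The difference was -1.43 ± 0.40, adjusted p = 0.0223. IFI35 rose in OCI-LY3, though not with those scalings, and in VAL it had 3.25 and 2.42 CPM at 6 h and 3.59 and 3.67 CPM at 0 h. Its difference was 0.84 ± 0.24, adjusted p = 0.0261. Of members low in at least 1 line, HERC6 differed by 2.90 ± 0.88, adjusted p = 0.0265, IFIT2 by -1.70 ± 0.44, adjusted p = 0.0169 and IFIT3 by -2.15 ± 0.67, adjusted p = 0.0361.

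Of the 7 differences in change at 6 h, that of IFIH1 alone was called in all 12 fits that left out 1 library. The number of lower members was 0 without VAL 0 h replicate 2, OCI-LY3 0 h replicate 2 or OCI-LY3 6 h replicate 1. It was 1 without VAL 0 h replicate 1, VAL 6 h replicate 1 or OCI-LY3 0 h replicate 1, and 2 without OCI-LY3 6 h replicate 2. The number of higher members was 1 without VAL 0 h replicate 2, OCI-LY3 0 h replicate 1 or OCI-LY3 6 h replicate 2. Over these fits the difference ran from -1.33 to -0.78 for STAT2 and from -1.72 to -1.003 for DDX58, each lost in 6 fits. It ran from 0.66 to 1.08 for IFI35, lost in 5 fits, and from 2.34 to 3.56 for HERC6, lost in 4. For BST2, which rose in both lines, the difference was 0.02 ± 0.19, adjusted p = 0.976, and for OAS1, which fell in both, it was -0.28 ± 0.18, adjusted p = 0.285. A p that misses the threshold does not show that the lines responded alike.

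**Figure D3:**
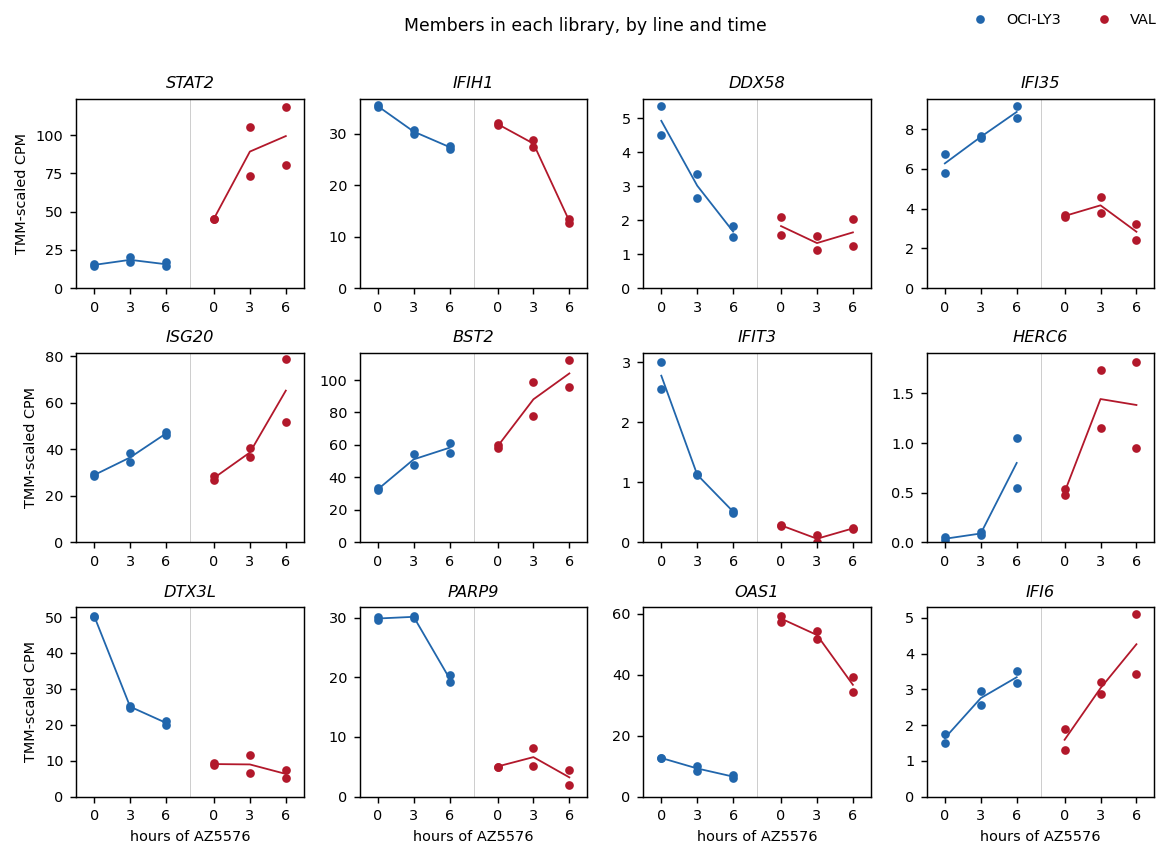
Level of 12 members in each library (points, TMM-scaled CPM on axes that start at 0), with lines through the group means, in OCI-LY3 and VAL over 0, 3 and 6 h. STAT2 was at 14.3 and 16.9 CPM in OCI-LY3 and 118 and 80.4 CPM in VAL at 6 h, and DTX3L was at 25.3 and 24.8 CPM at 3 h in OCI-LY3, against 50.1 and 50.4 CPM at 0 h.

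Genes upstream of the members were taken from a list of 98 further genes of the interferon pathway, of which 71 were tested. In OCI-LY3 10 were higher and 26 lower at 3 h, and 15 higher and 32 lower at 6 h. Among all genes the shares were 17.8% higher and 24.3% lower at 3 h, and 28.1% and 33.4% at 6 h. In VAL 16 were higher and 31 lower at 3 h, and 15 higher and 36 lower at 6 h, against 29.6% and 25.1% of all genes at 3 h and 34% and 32.2% at 6 h. The median change of the tested list genes was -0.40 in OCI-LY3 and -0.61 in VAL at 6 h, against -0.01 and 0.10 over all genes. Of 19 interferon genes none passed the filter on low counts. IFNB1 had at most 2 counts in any library. IFNG, the type II interferon, had 0 counts in the 6 OCI-LY3 libraries and 5 and 4 counts in VAL at 0 h.

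Of 6 receptor subunits 4 were lower in OCI-LY3 and 5 in VAL at 6 h, against 33.4% and 32.2% of all genes. The calls of lower genes kept their sign under each scaling, but scaling to mitochondrial or ribosomal protein mRNAs moved changes down. Lower calls could hardly turn with it. IFNAR1, the signalling subunit of the type I receptor, had 20.1 and 21.7 CPM at 3 h and 10.3 and 10.8 CPM at 6 h in OCI-LY3, against 35.9 and 37.1 CPM at 0 h (-1.79 ± 0.20, adjusted p = 2.12e-05 at 6 h). In VAL it had 13.8 and 10.8 CPM at 3 h and 10.7 and 6.37 CPM at 6 h, against 51.2 and 45.7 CPM at 0 h (-2.50 ± 0.21, adjusted p = 1.70e-06). No treated library reached its 0 h libraries. Its partner IFNAR2 changed by -0.75 ± 0.12 in OCI-LY3 and -1.61 ± 0.12 in VAL at 6 h. IFNGR1, which binds interferon-gamma, changed by -2.27 ± 0.15 in OCI-LY3 and -2.42 ± 0.17 in VAL. IFNGR2, its partner, changed by -0.21 ± 0.17, adjusted p = 0.301 in OCI-LY3 and -1.33 ± 0.17, adjusted p = 5.22e-05 in VAL, and the difference in change passed (1.12 ± 0.24, adjusted p = 0.00714). IFNLR1, the type III receptor subunit, changed by -2.62 ± 0.23 in OCI-LY3 and -1.57 ± 0.19 in VAL. IL10RB, which pairs with it, did not pass in either line (0.27 ± 0.22 in OCI-LY3 and -0.41 ± 0.20 in VAL).

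None of the 3 JAK kinases passed the test as lower in either line at 6 h, nor did STAT3, a STAT of cytokine receptors. In VAL at 6 h JAK1 rose by 1.09 ± 0.17, TYK2 by 0.75 ± 0.10 and STAT3 by 0.92 ± 0.13, and all 3 turned negative when scaled to mitochondrial or ribosomal protein mRNAs. In OCI-LY3 TYK2 rose by 0.98 ± 0.10, which also turned negative with these scalings. JAK1 changed by 0.33 ± 0.17 in OCI-LY3 and STAT3 by 0.23 ± 0.13, and neither passed. JAK2, the kinase of the type II receptor, changed by -0.63 ± 0.30 in OCI-LY3 and 0.28 ± 0.29 in VAL, and did not pass. JAK1 also differed between the lines at 0 h, at 248 and 247 CPM in OCI-LY3 and 73.7 and 72.6 CPM in VAL (1.76 ± 0.18, adjusted p = 7.68e-06).

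IRF9, the DNA-binding subunit of ISGF3, and IRF1, an activator of many of the members, fell by 3 h. IRF1 had 1.42 and 1.68 CPM at 3 h and 4.70 and 3.603 CPM at 6 h in OCI-LY3, against 24.6 and 23.1 CPM at 0 h (-3.94 ± 0.17, adjusted p = 1.85e-07 at 3 h). In VAL it had 1.47 and 1.23 CPM at 3 h and 2.00 and 1.90 CPM at 6 h, against 21.5 and 20.4 CPM at 0 h (-3.94 ± 0.17, adjusted p = 8.83e-08 at 3 h). The treated libraries of IRF1 lay far below 0 h in both lines. IRF9 had 0.146 and 0.0701 CPM at 3 h in OCI-LY3, against 0.732 and 0.519 CPM at 0 h (-2.49 ± 0.55, adjusted p = 0.00352). For VAL these were 0.196 and 0.119 CPM at 3 h, against 1.45 and 1.30 CPM at 0 h (-3.06 ± 0.46, adjusted p = 2.15e-04). At 6 h the IRF9 change was -1.03 ± 0.47, adjusted p = 0.0762 in OCI-LY3 and -2.68 ± 0.45, adjusted p = 3.20e-04 in VAL.

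Of 8 tested IRFs 4 were lower and 1 higher in OCI-LY3 at 6 h, and 7 were lower in VAL. The shares of all genes were 33.4% lower and 28.1% higher in OCI-LY3, and 32.2% lower in VAL. IRF2, a repressor at many of these promoters, changed by -1.35 ± 0.12 in OCI-LY3 and -0.61 ± 0.12 in VAL at 6 h. IRF4, a B-cell and plasma-cell factor, changed by -0.96 ± 0.23 in OCI-LY3 and -2.34 ± 0.18 in VAL. IRF5, which acts below Toll-like receptors, changed by -1.79 ± 0.23 in OCI-LY3 and -0.61 ± 0.21 in VAL. IRF3, which switches on interferon genes, changed by -0.40 ± 0.17 in OCI-LY3 and did not pass, and by -0.60 ± 0.17 in VAL. IRF7, its partner in that role, changed by 0.17 ± 0.22 in OCI-LY3 without passing and by -0.92 ± 0.20 in VAL. IRF8, a factor of B-cell and myeloid identity, rose by 1.01 ± 0.10 in OCI-LY3, turning negative when scaled to mitochondrial or ribosomal protein mRNAs, and changed by 0.08 ± 0.10 in VAL. Without 1 library IRF4 in OCI-LY3 lost its call (6 h replicate 2; changes from -1.23 to -0.73), as did IRF3 in VAL (6 h replicate 1; -0.78 to -0.47) and IRF5 in VAL (0 h replicate 2 or 6 h replicate 2; -1.05 to -0.31).

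**Figure D4:**
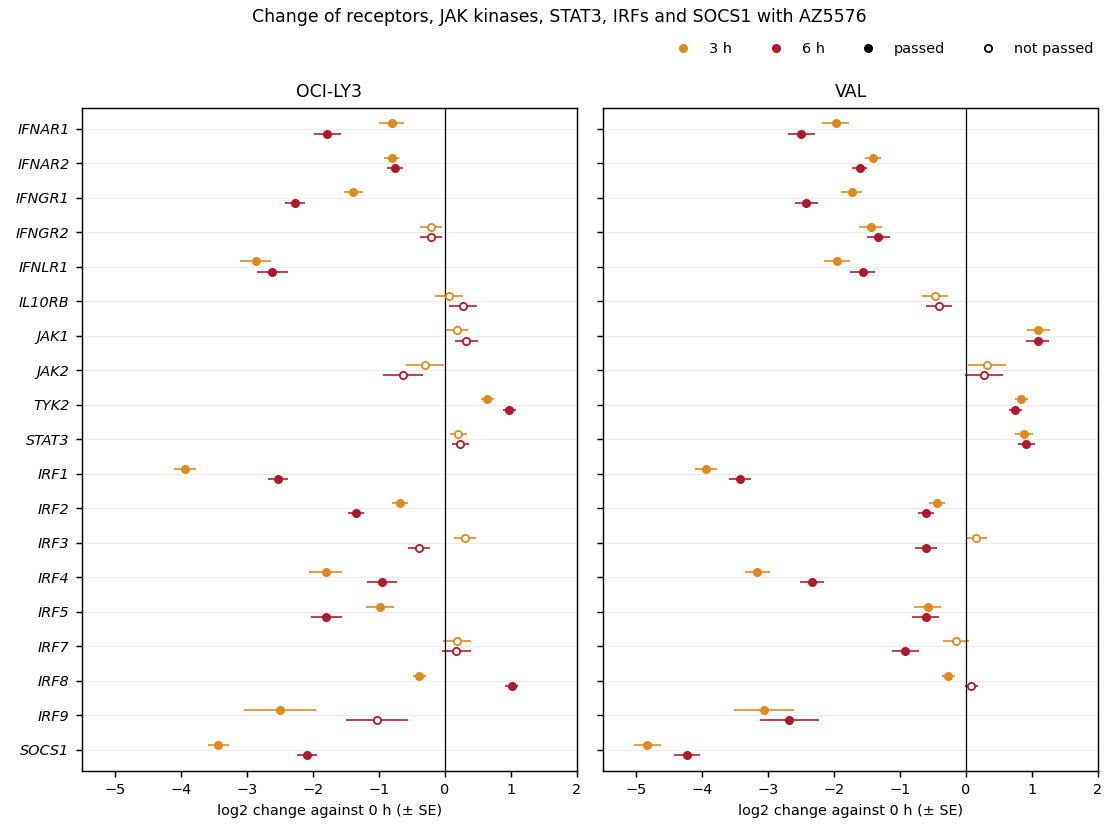
Log2 change (points, with standard errors) of receptor subunits, JAK kinases, STAT3, IRFs and SOCS1 at 3 h and 6 h against 0 h in OCI-LY3 and VAL, filled where the gene passed. IRF1 was at -3.94 in OCI-LY3 and -3.94 in VAL at 3 h, and SOCS1 was at -3.43 in OCI-LY3 and -4.83 in VAL.

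Of 7 tested inhibitors of the pathway 7 were lower in OCI-LY3 at 6 h, and 6 were lower and 1 higher in VAL. Among all genes 33.4% were lower in OCI-LY3, and 32.2% were lower and 34% higher in VAL. SOCS1, which blocks JAK kinases, had 2.52 and 2.14 CPM at 3 h and 5.98 and 5.84 CPM at 6 h in OCI-LY3, against 24.7 and 25.6 CPM at 0 h (-3.43 ± 0.16, adjusted p = 2.06e-07 at 3 h). In VAL it had 0.425 and 0.318 CPM at 3 h and 0.454 and 0.713 CPM at 6 h, against 10.7 and 10.9 CPM at 0 h (-4.83 ± 0.21, adjusted p = 8.83e-08 at 3 h). Between 3 h and 6 h it rose in OCI-LY3 (1.35 ± 0.17, adjusted p = 2.30e-04), and the VAL change was 0.60 ± 0.31, adjusted p = 0.32. IRF2BP2, a corepressor that binds IRF2, changed by -0.76 ± 0.12 in OCI-LY3 and -4.01 ± 0.15 in VAL at 6 h, and the changes differed (3.26 ± 0.20, adjusted p = 8.25e-06). IRF2BP1, its relative, changed by -1.93 ± 0.15 in OCI-LY3 and -3.57 ± 0.16 in VAL.

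Of 9 tested sensing adaptors and kinases 6 were lower and 2 higher in OCI-LY3 at 6 h, and 5 were lower in VAL. The shares of all genes were 33.4% lower and 28.1% higher in OCI-LY3, and 32.2% lower in VAL. TBK1, the kinase of IRF3, changed by -1.56 ± 0.13 in OCI-LY3 and -1.52 ± 0.13 in VAL at 6 h. MYD88, the Toll-like receptor adaptor, changed by -1.92 ± 0.12 in OCI-LY3 and -2.28 ± 0.12 in VAL. MB21D1, the DNA sensor cGAS, went the other way in OCI-LY3, with 1.60 and 1.51 CPM at 3 h and 10.8 and 9.89 CPM at 6 h, against 0.586 and 0.768 CPM at 0 h (3.92 ± 0.26, adjusted p = 4.37e-07), a rise that kept its sign under each scaling. In VAL it had 2.00 and 3.09 CPM at 6 h, against 2.83 and 3.08 CPM at 0 h (-0.23 ± 0.24, adjusted p = 0.42). The difference in change was 4.15 ± 0.35, adjusted p = 9.20e-05. TMEM173, the adaptor STING that acts below cGAS, had at most 1 count in any library.

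UBA7 and UBE2L6, the activating and conjugating enzymes of ISG15, were higher in both lines at 6 h, with UBA7 at 1.78 ± 0.17 in OCI-LY3 and 1.11 ± 0.13 in VAL. UBE2L6 was at 0.74 ± 0.11 in OCI-LY3 and 0.56 ± 0.11 in VAL, and with mitochondrial or ribosomal protein scaling each of these but UBA7 in OCI-LY3 turned negative. ISG15 itself changed by 0.18 ± 0.13, adjusted p = 0.251 in OCI-LY3 and 0.09 ± 0.13, adjusted p = 0.568 in VAL at 6 h. USP18, which removes ISG15 and dampens the receptor, was at 0.297 and 0.395 CPM at 6 h and 0 and 0.181 CPM at 0 h in OCI-LY3 and was not tested. In VAL it was at 0.227 and 0.285 CPM at 6 h and 0.190 and 0.408 CPM at 0 h.

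Of 32 tested interferon-induced genes outside the 36, 8 were higher and 9 lower in OCI-LY3 at 6 h, and 8 higher and 13 lower in VAL. The shares of all genes were 28.1% higher and 33.4% lower in OCI-LY3, and 34% and 32.2% in VAL. TRIM21, an antibody receptor and ubiquitin ligase in the cytosol, changed by -3.12 ± 0.26 in OCI-LY3 and -3.998 ± 0.29 in VAL at 6 h. ZNFX1, an RNA sensor, changed by -1.33 ± 0.15 in OCI-LY3 and -1.93 ± 0.16 in VAL. PML, the scaffold of nuclear bodies, changed by -0.96 ± 0.12 in OCI-LY3 and -1.61 ± 0.12 in VAL. TRIM14, an adaptor of the RNA-sensing pathway, rose by 0.47 ± 0.10 in OCI-LY3 and 1.45 ± 0.11 in VAL, both negative with mitochondrial scaling and the OCI-LY3 value also with ribosomal protein scaling. Between the lines at 0 h, TRIM5, a retrovirus restriction factor and near relative of TRIM22, had 0.0732 and 0.0677 CPM in OCI-LY3 and 8.73 and 8.84 CPM in VAL. Whether TRIM5 entered the tested genes through VAL alone was not checked, so its gap is given as levels, without a test. PARP12, an antiviral ADP-ribosyltransferase, had 1.07 and 1.20 CPM in OCI-LY3 and 26.3 and 26.3 CPM in VAL (-4.53 ± 0.18, adjusted p = 7.71e-09). CMPK2, which lies beside RSAD2, had 0 counts in all 6 OCI-LY3 libraries and 0.428 and 0.662 CPM in VAL at 0 h. CXCL10, an interferon-induced chemokine, went against that order, with 6.54 and 7.16 CPM in OCI-LY3 at 0 h and 0 counts in VAL, at least 186-fold higher in OCI-LY3. In OCI-LY3 it had 4.05 and 3.92 CPM at 3 h and 1.73 and 1.54 CPM at 6 h (-2.07 ± 0.31, adjusted p = 2.39e-04 at 6 h).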

How the data were processed

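RNA-seq was done on poly(A)+ RNA of 12 libraries, 6 per line, prepared with an unstranded kit and read for 100 cycles from 1 end, per the labels' protocols. The deposited table holds raw read counts per gene, per the file headers. The submitters' processing notes name GRCh38 and DESeq2, and no aligner or counter is given in the sources used here. A second deposited table of normalized log2 values was not used. Groups were taken from the labels. Counts were tested with edgeR 4.0.16 (R 4.3.3, limma 3.58.1): low counts were filtered by filterByExpr, TMM scaling was used, and the quasi-likelihood test ran on all 12 libraries with 1 mean per group and 6 residual degrees of freedom. P-values were adjusted by Benjamini-Hochberg over all genes tested, with a threshold of 0.05. The scripts were tested on simulated data. TPM used GENCODE release 29 exon lengths. A fold against a group with 0 counts used a floor of 3 counts over the group and covers counting error of that group only. Counting error of the other group and the spread between libraries are not covered.

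Members and lists were chosen with earlier results of these data known. Members named in full were, by rule, those silent in one line and expressed in the other, and expressed members with the smallest adjusted p in each comparison. Pathway genes were named by role, with at most 3 per role and comparison besides receptors, JAKs, STATs and IRFs. Some genes of the pathway list are not reported here. HERC5, HERC6, IFIT2, IFIT5, IFI27, DHX58, OAS2, OAS3, OASL, ISG15, EIF2AK2, IFITM2 and IFITM3 in OCI-LY3, PARP9, IFNG, TMEM173, CMPK2 and CXCL10, and any others outside that rule, were chosen with their values in view, after these were seen. The alternatives tried were other scalings, no filter, DESeq2 1.42.0, each line alone, a replicate block and leaving out libraries.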

Additional observations from a re-analysis of the deposited data

Results flagged for a closer look

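For 7 members the change with AZ5576 at 6 h differed between OCI-LY3 and VAL by the test of the difference itself, an interaction term in edgeR's quasi-likelihood fit, with adjusted p under the threshold. Of 31 tested members 3 were higher and 4 lower, against 12.3% and 14.4% of all genes tested. The values are log2 changes of OCI-LY3 minus those of VAL, from 2 libraries a group. The difference was 2.90 for HERC6, 0.92 for IFIH1 and 0.84 for IFI35. It was -1.43 for DDX58, -1.09 for STAT2, -1.70 for IFIT2 and -2.15 for IFIT3. IFIH1 alone was called in all 12 fits that left out 1 library, and the difference of IFIT3 was lost in 10 of them. Scaled to mitochondrial mRNAs none of the members was lower in OCI-LY3 by this test.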

How the results depend on the processing

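Counts of members that moved by over 1.5 times are given here, as higher and lower members, and the cause was not tested. The labels do not say that replicate numbers pair libraries, and correlations of same-numbered deviations were -0.072, -0.071 and 0.742 in VAL and -0.093, 0.019 and 0.085 in OCI-LY3. With a replicate block the counts were 5 lower for VAL at 6 h, 4 lower for OCI-LY3 6 h against 3 h and 2 lower for the line difference in change at 3 h. With DESeq2's Wald test they were 4 higher for OCI-LY3 at 3 h and 1 lower for OCI-LY3 6 h against 3 h, and with DESeq2's size factors 4 higher for OCI-LY3 at 3 h and 1 lower for OCI-LY3 6 h against 3 h. With each line fitted alone they were 7 higher and 0 lower for VAL at 3 h, 7 higher for OCI-LY3 at 3 h, 1 higher and 1 lower for VAL 6 h against 3 h and 6 lower for OCI-LY3 6 h against 3 h. With library size alone they were 3 higher and 3 lower for VAL at 3 h, 8 higher and 8 lower for VAL at 6 h, 1 higher for OCI-LY3 at 3 h, 5 higher for OCI-LY3 at 6 h, 5 lower for VAL 6 h against 3 h and 2 lower for the line difference in change at 6 h, and without the low-count filter 5 lower for VAL at 6 h, 2 higher and 4 lower for OCI-LY3 6 h against 3 h and 1 lower for the line difference in change at 3 h. Scaled to mitochondrial mRNAs they were 0 higher and 20 lower for VAL at 3 h, 0 higher and 28 lower for VAL at 6 h, 0 higher and 17 lower for OCI-LY3 at 3 h, 2 higher and 19 lower for OCI-LY3 at 6 h, 0 higher and 14 lower for VAL 6 h against 3 h, 2 higher and 5 lower for OCI-LY3 6 h against 3 h, 5 higher for the lines at 0 h and 0 lower for the line difference in change at 6 h. Scaled to ribosomal protein mRNAs they were 0 higher and 9 lower for VAL at 3 h, 0 higher and 14 lower for VAL at 6 h, 0 higher and 9 lower for OCI-LY3 at 3 h, 2 higher and 17 lower for OCI-LY3 at 6 h, 0 higher and 6 lower for VAL 6 h against 3 h, 2 higher and 4 lower for OCI-LY3 6 h against 3 h and 1 higher and 0 lower for the line difference in change at 6 h. Chosen after seeing the data, leaving out the treated VAL libraries numbered 1 gave 2 lower for VAL at 3 h, 6 lower for VAL at 6 h, 7 higher for OCI-LY3 at 3 h, 9 lower for VAL 6 h against 3 h, 7 lower for OCI-LY3 6 h against 3 h and 4 lower for the line difference in change at 3 h, and leaving out those numbered 2 gave 2 lower for VAL at 3 h, 7 higher for OCI-LY3 at 3 h, 6 higher and 6 lower for VAL 6 h against 3 h, 7 lower for OCI-LY3 6 h against 3 h, 1 higher and 9 lower for the line difference in change at 3 h and 11 lower for the line difference in change at 6 h. Leaving out 1 library at a time gave 3 to 15 higher and 1 to 2 lower for VAL at 3 h, 10 to 15 higher and 2 to 6 lower for VAL at 6 h, 1 to 4 higher and 2 to 6 lower for OCI-LY3 at 3 h, 6 to 10 higher and 5 to 7 lower for OCI-LY3 at 6 h, 2 to 4 higher and 2 to 9 lower for VAL 6 h against 3 h, 2 to 5 higher and 0 to 4 lower for OCI-LY3 6 h against 3 h, 5 to 8 higher and 14 to 15 lower for the lines at 0 h, 0 to 0 higher and 0 to 4 lower for the line difference in change at 3 h and 1 to 3 higher and 0 to 5 lower for the line difference in change at 6 h. With mitochondrial scaling, log2 changes turned negative for VAL at 3 h: OAS2 -1.06, OAS3 -0.22, IFITM2 -0.66, IFITM3 -0.56, BST2 -0.80, MX2 -0.91, ISG20 -0.92, TRIM22 -0.76, ISG15 -0.95, STAT2 -0.47 and IFI6 -0.48. With mitochondrial scaling, log2 changes turned negative for VAL at 6 h: DHX58 -1.34, OAS3 -0.86, IFIT2 -1.10, IFITM2 -1.07, IFITM3 -1.10, BST2 -1.35, MX2 -1.63, ISG20 -0.92, TRIM22 -1.48, HERC6 -0.74, STAT2 -1.08, IFI6 -0.76, JAK1 -1.11, STAT3 -1.27, TRIM14 -0.73, TYK2 -1.44, UBA7 -1.08 and UBE2L6 -1.62. With mitochondrial scaling, log2 changes turned negative for OCI-LY3 at 3 h: BST2 -0.50 and IFI6 -0.40. With mitochondrial scaling, log2 changes turned negative for OCI-LY3 at 6 h: DHX58 -0.31, BST2 -0.72, ISG20 -0.86, TRIM22 -1.24, IFI6 -0.53, IFI35 -1.06, IRF8 -0.54, TRIM14 -1.08, TYK2 -0.58 and UBE2L6 -0.81. With mitochondrial scaling, log2 changes turned negative for VAL 6 h against 3 h: ISG20 -0.0053. With ribosomal protein scaling, log2 changes turned negative for VAL at 3 h: OAS2 -0.48, IFITM2 -0.13, IFITM3 -0.0056, BST2 -0.29, MX2 -0.30, ISG20 -0.38, TRIM22 -0.19 and ISG15 -0.41. With ribosomal protein scaling, log2 changes turned negative for VAL at 6 h: DHX58 -0.49, IFIT2 -0.26, IFITM2 -0.25, IFITM3 -0.29, BST2 -0.54, MX2 -0.76, ISG20 -0.15, TRIM22 -0.60, STAT2 -0.18, JAK1 -0.23, STAT3 -0.41, TYK2 -0.59, UBA7 -0.22 and UBE2L6 -0.80. With ribosomal protein scaling, log2 changes turned negative for OCI-LY3 at 3 h: BST2 -0.0500. With ribosomal protein scaling, log2 changes turned negative for OCI-LY3 at 6 h: BST2 -0.29, ISG20 -0.43, TRIM22 -0.81, IFI6 -0.0953, IFI35 -0.63, IRF8 -0.11, TRIM14 -0.65, TYK2 -0.15 and UBE2L6 -0.38. Library size alone turned OAS2 -1e-04 in VAL at 3 h and TRIM22 -0.0534 in OCI-LY3 at 6 h. Without OCI-LY3 6 h replicate 1 the change of IFITM2 there was 0, and over the fits that left out 1 library it ran up to 5.25, on at most 3 counts. Members with under 1 CPM have few counts, so differences among them may not be detectable at this depth.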
